A study of Homo sapiens with 2 samples.

Results

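The small Cajal body RNAs were examined in UACC62 cells, an established human melanoma line, after depletion of the transcription factor FOSL1. The members were all genes whose symbol in the probe-to-gene table starts with SNORD, SNORA or SCARNA, with 1 probe set per gene. The rule found 23 of the 14884 named genes, and all 23 had SCARNA symbols. It found 0 genes with SNORD and 0 with SNORA symbols, so nucleolar guide RNAs of those names were not analysed here.

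Small nucleolar RNAs guide chemical modification of other RNAs: those with box C/D motifs direct ribose methylation and those with box H/ACA motifs direct pseudouridylation, mostly on ribosomal RNA. Small Cajal body RNAs carry the same boxes, singly or combined in a composite molecule, but reside in Cajal bodies, nuclear compartments in which the small nuclear RNAs of the spliceosome are modified. Most are cut out of introns of host genes, and they work as particles with the methyltransferase fibrillarin or the pseudouridine synthase dyskerin. The members were assigned to box classes from general knowledge: 4 to C/D, 4 to composite and 13 to H/ACA, while SCARNA9L and SCARNA27 were not classed.

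The series held 1 array of cells that had received an siRNA against FOSL1 and 1 array of cells that had received a non-targeting control siRNA, both harvested at day 3. Both groups were UACC62 cells grown in the same medium, and the labels do not say whether the siRNA against FOSL1 was a single sequence or several. Each condition was 1 culture on 1 array, so no test was run and the differences below have no replicate behind them. The values are deposited log2 intensities, and a difference is the FOSL1 siRNA value minus the control siRNA value. Both arrays had a median of 6.885 over 53427 probe sets. FOSL1 itself had 10.38 with FOSL1 siRNA and 11.90 with control siRNA, a level 2.88-fold lower, in the direction of the labels. Of 13 named genes on a list of 17 melanocyte lineage markers, 9 lay at or above the filter, among them SOX10, TYR, MITF and MLANA, named here as well-known markers, while PMEL, TYRP1, GPR143 and OCA2, genes of melanosomes and pigment, were under it on both arrays.

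A filter on dim genes was set at the median of all named genes, a mean log2 value of 8.021 over both arrays, and 7442 genes were at or above it. Of the 23 members, 9 passed: SCARNA2, SCARNA7, SCARNA9, SCARNA9L, SCARNA10, SCARNA12, SCARNA16, SCARNA17 and SCARNA22. The other 14 lay under it, and SCARNA6 was the nearest, 0.022 log2 units short. Each member had a single probe set, so no member had a second measurement of its own. For scale, the differences given by pairs of probe sets of 213 other genes had an SD between probe sets of 0.169 log2 units, which leaves out any variation between cultures. As the arrays measured bulk RNA, fewer cells with an RNA and less of that RNA per cell cannot be told apart.

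**Figure D1:**
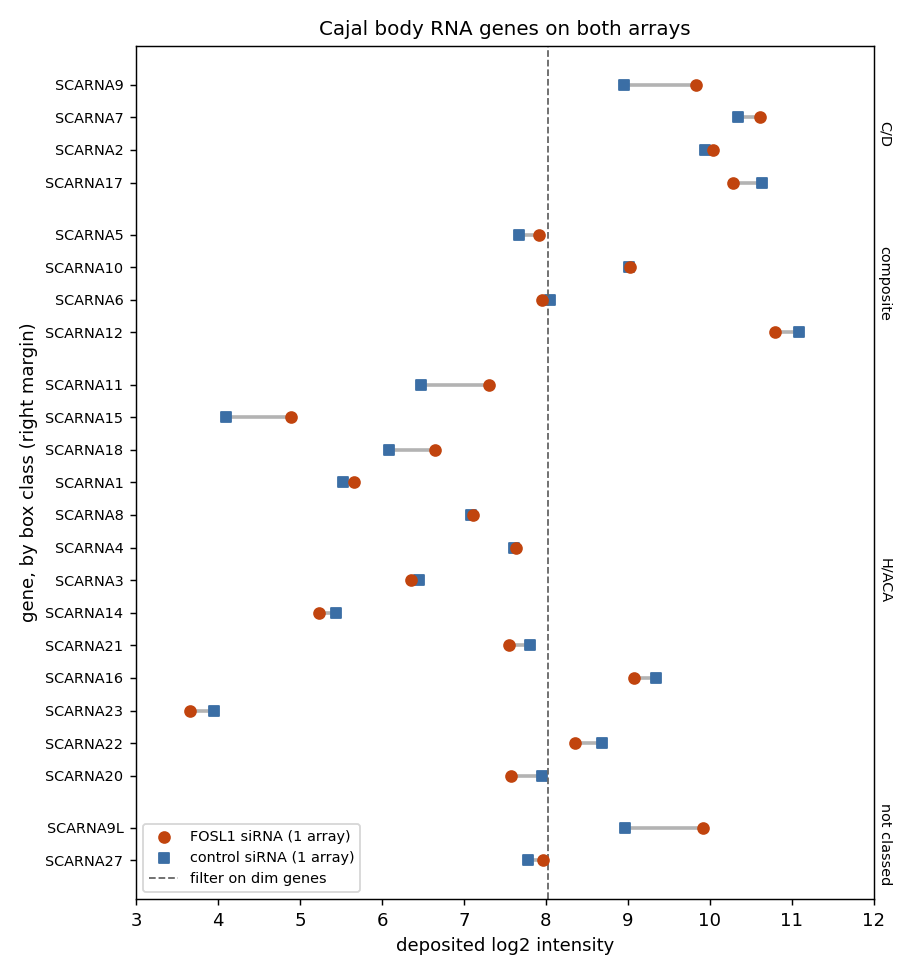
Deposited log2 intensity (horizontal axis) of each of the 23 Cajal body RNA genes, by box class and then by difference, with circles for the FOSL1 siRNA array and squares for the control siRNA array (1 array each) and a dashed line at the filter of 8.021. The widest gaps among genes right of the line are those of SCARNA9 and SCARNA9L, in which the FOSL1 siRNA array is higher. The levels of different genes are read by different probes and cannot be set against each other.

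SCARNA9 and SCARNA9L, by its symbol a SCARNA9-like gene, were the Cajal body RNAs with the largest differences, both higher with FOSL1 siRNA. SCARNA9 (Entrez gene 619383, probe set 16730104), a box C/D guide known to act on the U2 spliceosomal RNA, had a log2 value of 9.83 with FOSL1 siRNA and 8.95 with control siRNA. The difference of 0.88 made it 1.84-fold higher, at rank 16 from the highest of the 7442 genes. SCARNA9L (Entrez gene 100158262, probe set 17109714) had 9.92 with FOSL1 siRNA and 8.96 with control siRNA. It was 1.94-fold higher, a difference of 0.95, at rank 8. The differences of the pair were 0.07 log2 units apart, less than the SD between probe sets of a gene. The sequence identity of the pair was not analysed here. Probes for similar genes can read the same RNA, so the pair may be 1 measurement, and which gene each value reports is uncertain.

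These were the members at least 1.5-fold higher among the 9 that passed the filter, 2 genes, and 0 were at least 1.5-fold lower. Over all genes at or above the filter, the shares past 1.5-fold were 1.13% on the higher side and 0.766% on the lower side. With SCARNA9L left out the count was 1 member. At a threshold of 2-fold 0 of the 9 members were higher and 0 lower, where 0.0806% of all genes were 2-fold higher and 0.0403% were 2-fold lower. The count of 2 is SCARNA9 and SCARNA9L.

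The other box C/D guides differed less and lay on both sides of 0. SCARNA7, also called U90, which guides methylation of the U1 spliceosomal RNA, had 10.61 with FOSL1 siRNA and 10.35 with control siRNA, a difference of 0.26. SCARNA2, a guide for U2 like SCARNA9, had 10.03 with FOSL1 siRNA and 9.94 with control siRNA, a difference of 0.10. SCARNA17, also called U91, was on the other side, with 10.28 with FOSL1 siRNA and 10.64 with control siRNA. It was 1.28-fold lower, a difference of -0.36, the lowest of the members that passed the filter. Thus 3 of the 4 C/D guides were above 0, and of the pair that guides U2, SCARNA9 differed more than SCARNA2.

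Composite guides carry both kinds of box, and 2 of the 4 passed the filter. SCARNA10, or U85, a guide for both kinds of modification on the U5 spliceosomal RNA, had 9.02 with FOSL1 siRNA and 9.01 with control siRNA, which gives it no direction. SCARNA12, or U89, had 10.79 with FOSL1 siRNA and 11.10 with control siRNA, 1.23-fold lower. The composite guides SCARNA5 and SCARNA6, or U87 and U88, lie within the span of the same gene, ATG16L1, and were under the filter. SCARNA5 had 7.91 with FOSL1 siRNA and 7.68 with control siRNA, while SCARNA6 had 7.95 with FOSL1 siRNA and 8.04 with control siRNA. Their differences, 0.23 and -0.09, had opposite signs.

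Box H/ACA guides were mostly dim: 2 of 13 passed the filter, and both were lower with FOSL1 siRNA. SCARNA22, also called ACA11, which lies within the NSD2 gene, had 8.35 with FOSL1 siRNA and 8.68 with control siRNA, 1.26-fold lower. SCARNA16, or ACA47, had 9.08 with FOSL1 siRNA and 9.34 with control siRNA, 1.20-fold lower. Both differences, -0.33 and -0.27, exceed the SD between probe sets in size but have no replicate check. That SD comes from other genes and leaves out variation between cultures. The 159 microRNA genes at or above the filter had a median difference of -0.27.

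The 11 H/ACA guides under the filter had differences on both sides, 6 above 0 and 5 below, where 45.4% of all named genes were above 0 and 54.5% below. SCARNA11, or ACA57, had 7.30 with FOSL1 siRNA and 6.48 with control siRNA, a difference of 0.82. SCARNA15, or ACA45, had 4.88 with FOSL1 siRNA and 4.10 with control siRNA, a difference of 0.79. SCARNA18, or U109, had 6.65 with FOSL1 siRNA and 6.08 with control siRNA, a difference of 0.56, which falls short of 1.5-fold. These 3 were the highest of the dim guides, and no dim guide was 1.5-fold lower.

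At the other end of the dim guides, SCARNA20, or ACA66, had 7.58 with FOSL1 siRNA and 7.95 with control siRNA. Its difference of -0.37 was the lowest of all 23 members. SCARNA23, SCARNA21 and SCARNA14 had differences of -0.29, -0.26 and -0.21, and SCARNA3 had -0.10. Near or just above 0 lay SCARNA4 (0.02), SCARNA8 (0.03) and SCARNA1 (0.14), and the unclassed SCARNA27 had 0.19. With no filter, 4 of the 23 members were past 1.5-fold on the higher side, against 1.91% of all named genes, and 0 on the lower side, against 1.43%.

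As a list, the 9 members at or above the filter had a median difference of 0.02, beside -0.00 over all 7442 genes, with 5 members above 0 and 4 below. The median was the value of SCARNA10, which counts as above 0 though its values give it no direction. The median hid differences of opposite sign: the members ran from -0.36 to 0.95. SCARNA9 and SCARNA9L were left out after the data were seen, and leaving out the highest values cannot raise a median. Without SCARNA9 and SCARNA9L the median of the other 7 was -0.27, with 3 above 0 and 4 below. With no filter, the other 21 members had a median of 0.02. Without SCARNA9L alone, the median of the members at or above the filter was -0.13. With the pair kept, the median was also below 0 with the filter at the 75th percentile (-0.10), with the mean of all probe sets (-0.04) and after quantile normalization over named genes (-0.00), so the list's centre has no settled sign. Of all genes at or above the filter, 49.8% were above 0 and 50.1% below.

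The differences of most of the 9 members were larger in size than those of most genes. A difference of at least 0.25 log2 units either way, a size chosen after the values were seen, was reached by 7 of the 9 members and by 23.3% of all genes at or above the filter. The median size of the difference was 0.30 log2 units in the members and 0.14 over all those genes. Without SCARNA9 and SCARNA9L, 5 of the other 7 members reached 0.25 log2 units. With no filter 13 of the 23 members did, against 28.7% of all named genes. MicroRNA genes also make short products, and of the 159 at or above the filter 58.5% reached 0.25 log2 units. Of these microRNA genes 30 were above 0 and 128 below. The microRNA genes had a median of -0.27, with 4 past 1.5-fold on the higher side and 20 on the lower side. Protein-coding genes at or above the filter reached 0.25 log2 units in 21.9% of cases. Whether the short length of the RNAs has a part in the size of their differences was not tested.

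Other short non-coding RNAs gave values for comparison, and some of these classes were chosen after the data were seen. TERC, the telomerase RNA, is an H/ACA RNA that also passes through Cajal bodies, and it had 9.42 with FOSL1 siRNA and 9.06 with control siRNA. Its difference of 0.35 was opposite in sign to those of SCARNA16 and SCARNA22. RMRP, the RNA of the ribosomal RNA processing enzyme RNase MRP, had 13.26 with FOSL1 siRNA and 13.28 with control siRNA. RPPH1, the RNA of RNase P, had 8.72 with FOSL1 siRNA and 9.23 with control siRNA, 1.42-fold lower. All 8 SNAR RNAs were below 0, between -0.37 and -0.01, although they are close copies of each other and their values are not independent. VTRNA1-3, a vault RNA, was 1.47-fold lower.

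**Figure D2:**
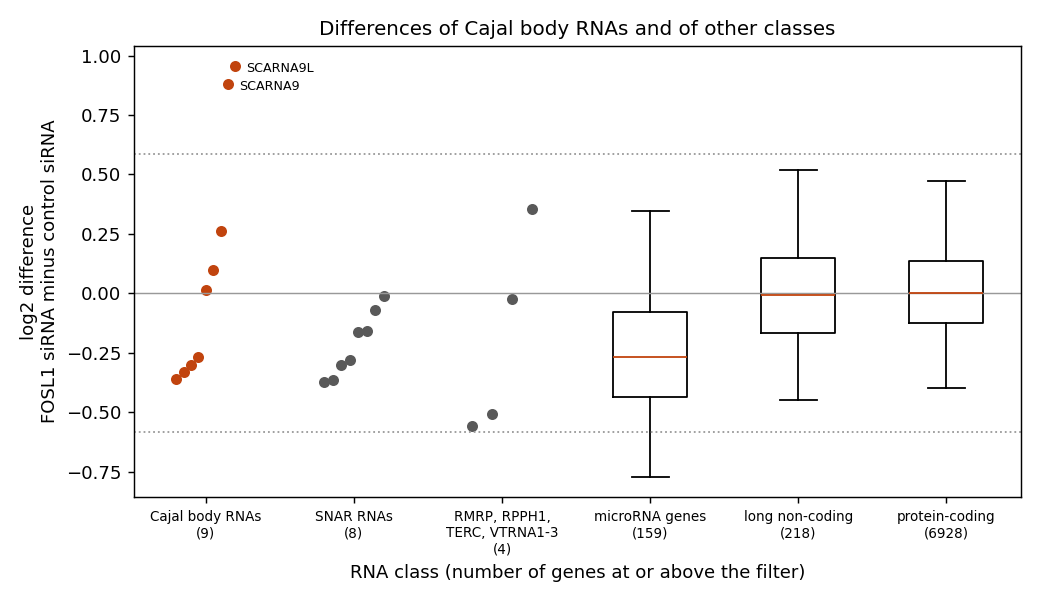
Log2 difference (FOSL1 siRNA minus control siRNA, vertical axis) of genes at or above the filter, by RNA class. Points are single genes for the 9 Cajal body RNAs, the 8 SNAR RNAs and 4 other short RNAs, and boxes show the median, quartiles and central 95% for 159 microRNA, 218 long non-coding and 6928 protein-coding genes, with dotted lines at 1.5-fold. SCARNA9 and SCARNA9L stand above the upper dotted line, and 4 other Cajal body RNAs lie between -0.36 and -0.27.

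The RNAs also differed in length, in a way that went with the filter. By RefSeq annotation of assembly GRCh38.p14, 9 members were 266 to 421 nucleotides long and 14 were 125 to 187, with none between. Of the 9 long ones, 7 passed the filter, and of the 14 short ones, 2. All C/D and composite guides were among the long ones and all H/ACA guides among the short ones. Length and box class therefore cannot be told apart here. Among all named genes, 7442 of 14884 passed the filter. In other classes the share that passed did not simply follow length. The filter was passed by 159 of 1072 microRNA genes and by 218 of 1398 long non-coding genes. All 8 SNAR RNAs, which are also short, passed it. RNA was purified on silica columns, per the labels' protocols, and such kits are known to recover very short RNAs poorly. The recovery was not measured, its part in these levels was not tested, and the brightness of a probe set also depends on its probes. The protocol was the same for both arrays.

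Host genes were compared with the RNAs inside them, because a probe set in an intron can also read unspliced host transcripts. In the same annotation, 22 of the 23 members lay within the span of another gene, SCARNA2 being the exception, and 13 of them lay in 1 of 12 genes named in the probe-to-gene table. The annotation table gives no strand for the members, so the strand of each pair was not checked. SCARNA11 and SCARNA15 each lay under genes of both strands.

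CEP295, a centriole protein whose gene spans SCARNA9, was itself higher, with 9.21 with FOSL1 siRNA and 8.88 with control siRNA. Its difference of 0.33 was 0.55 log2 units short of that of SCARNA9. SCARNA9L lies in EIF1AX, which was not analysed here. KPNA4, a nuclear import receptor that spans SCARNA7, had 11.37 with FOSL1 siRNA and 11.14 with control siRNA. The difference of KPNA4, 0.23, was 0.03 log2 units short of that of SCARNA7. PHB2, a prohibitin that spans SCARNA12, had 11.49 with FOSL1 siRNA and 11.64 with control siRNA, a difference of -0.15 and thus of the same sign as SCARNA12. SNHG20, the non-coding host of SCARNA16, had a difference of -0.07. NSD2, a histone methyltransferase that spans SCARNA22, had 8.96 with FOSL1 siRNA and 8.94 with control siRNA, a difference of 0.01 beside the -0.33 of SCARNA22. These were the 5 pairs in which the RNA and the gene both passed the filter, and 4 of them shared a sign.

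Over all 13 pairs, 8 shared a sign, 4 did not, and in 1 the gene had no difference. That one was CHD4, a nucleosome remodeler, which had 11.36 on both arrays while SCARNA11 differed by 0.82. TIPIN, a replication fork protein that spans SCARNA14, had the largest difference of the 12 genes, 0.53, but lay under the filter, and SCARNA14 had -0.21. ATG16L1, an autophagy protein, had a difference of -0.05, between those of its guides SCARNA5 and SCARNA6. The 9 named genes at or above the filter had a median difference of -0.02, and 0 reached 1.5-fold, where 1.89% of all genes at or above the filter did so in either direction. Spearman's rho between the differences of RNA and gene was 0.48 and Pearson's r was 0.26 over these 13 pairs, which come from the same 2 arrays and are not independent replicates. What part host transcripts have in the values of the RNAs was not tested.

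**Figure D3:**
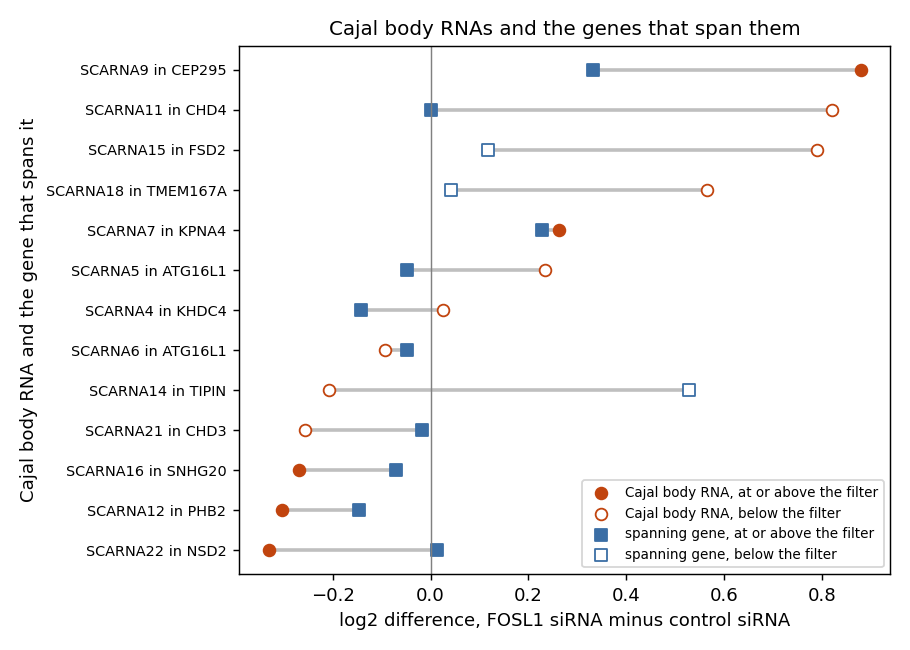
Log2 difference (FOSL1 siRNA minus control siRNA, horizontal axis) of 13 Cajal body RNAs (circles) and of the gene whose span holds each (squares), with open symbols for genes under the filter. SCARNA9 lies at 0.88 and CEP295 at 0.33, while SCARNA11 lies at 0.82 and CHD4 at 0.

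Since FOSL1 binds DNA as part of AP-1, the promoters of the spanning genes were searched for TGANTCA, a loose form of the AP-1 motif. N stands for any base, so the matches can include sequences that are not AP-1 sites. The pattern reads the same on both strands. The RefSeq promoter table of build GRCh38.p14 held 13 windows for 11 of the 12 genes, each with 250 bases before and 50 after a transcription start. The pattern was in 0 of these 13 windows and in 7.71% of all 35116 windows of the table. This says only that these letters are not in these windows. The 250 bases before the start are shown for the genes that span the highest and the lowest members with a named spanning gene at or above the filter, CEP295 at chr11:93661432-93661681 and NSD2 at chr4:1871143-1871392, both on the + strand. Capitals mark the CCAAT box, on either strand, which 32.01% of all windows hold before the start.
CEP295: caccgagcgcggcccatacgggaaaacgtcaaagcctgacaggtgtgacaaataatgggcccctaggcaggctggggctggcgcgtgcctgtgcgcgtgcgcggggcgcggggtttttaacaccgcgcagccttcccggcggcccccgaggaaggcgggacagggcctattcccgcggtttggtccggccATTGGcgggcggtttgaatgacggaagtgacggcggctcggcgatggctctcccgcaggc
NSD2: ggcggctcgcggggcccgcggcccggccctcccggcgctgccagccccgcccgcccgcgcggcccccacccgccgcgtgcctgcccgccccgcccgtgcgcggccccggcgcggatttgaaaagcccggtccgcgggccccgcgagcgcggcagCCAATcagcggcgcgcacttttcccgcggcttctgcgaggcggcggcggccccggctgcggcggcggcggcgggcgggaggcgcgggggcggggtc
Each holds 1 CCAAT box before the start, and 5 of the 13 windows of spanning genes hold any. Over the full 300 bases, G and C made up 67.7% of the CEP295 window and 86.7% of the NSD2 window. The median over all windows was 58.7%.

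The measured genes of the proteins that form the guide particles had differences between -0.12 and 0.30. Of 5 listed names of box C/D core proteins, 3 were measured and passed the filter. FBL, the methyltransferase fibrillarin, had 12.67 with FOSL1 siRNA and 12.65 with control siRNA. NOP58 and SNU13, which scaffold the particle, had differences of 0.17 and -0.12. Of 6 listed H/ACA particle genes, 5 were measured and passed the filter, with 3 above 0 and 2 below. DKC1, the gene of dyskerin, was not among the named genes, nor was NOP56 of the C/D list. NAF1, an assembly factor, had 8.62 with FOSL1 siRNA and 8.32 with control siRNA, a difference of 0.30, and GAR1, a core protein that displaces it, had 0.24. NOP10, NHP2 and the dyskerin chaperone SHQ1 had differences of -0.02, -0.00 and 0.05. None of these genes reached 1.5-fold, but as 1.89% of all genes at or above the filter did so, a count of 0 is near the background.

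Of 21 listed genes of the Cajal body and of spliceosomal particle assembly, 14 were measured, and most of those were above 0. WRAP53, SMN1 and SMN2 were among the genes not measured. Of the 12 at or above the filter, 11 were above 0 and 1 below, where 49.8% of all genes at or above the filter were above 0, and their median was 0.13 beside -0.00 over all those genes. GEMIN8, a subunit of the SMN complex that loads Sm proteins onto small nuclear RNAs, had 8.84 with FOSL1 siRNA and 8.03 with control siRNA, 1.75-fold higher. It was the 1 of the 12 at least 1.5-fold higher, where 1.13% of all genes were. Its control siRNA value lay close to the filter of 8.021. USPL1, a Cajal body protease, had a difference of 0.23, and TGS1, which trimethylates RNA caps, 0.16. Of the 11 above 0, only GEMIN8 and USPL1 exceeded the SD between probe sets, 0.169, and the smallest lay at 0.00. COIL, the structural marker of the Cajal body, had 9.53 with FOSL1 siRNA and 9.38 with control siRNA, and was chosen after its values were seen. GEMIN4, another subunit of the SMN complex, had the difference below 0, -0.24.

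Factors that assemble, trim or recycle guide RNAs lay on both sides of 0. On a list of 21 names of trimming and turnover genes, 15 were measured, all at or above the filter. Of these, 9 were above 0 and 6 below, with a median of 0.05. PARN was counted here and in the Cajal body list. NOLC1, or Nopp140, a chaperone of guide particles in the nucleolus and Cajal body, had 10.85 with FOSL1 siRNA and 11.41 with control siRNA, 1.47-fold lower, while EXOSC3 and the lariat debranching enzyme DBR1 had -0.13 and -0.08. The exonucleases XRN1 and XRN2 had differences of 0.31 and 0.23, and RBM7, of the nuclear exosome targeting complex, 0.28. Of 15 listed names of assembly genes, 8 were measured, and of the 7 at or above the filter 4 were above 0 and 3 below. NUFIP1, NOPCHAP1 and RPAP3 had differences of 0.19, 0.12 and 0.12, against -0.24 for the helicase RUVBL2, -0.04 for PIH1D1 and -0.02 for AQR.

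On a list of 46 ribosomal RNA synthesis and processing genes, 22 were measured, all at or above the filter. Of these, 14 were above 0 and 8 below. Their median was 0.02 beside -0.00 over all genes at or above the filter, of which 49.8% were above 0. None of the 22 reached 1.5-fold, a count near the background of 1.89%. The largest differences were those of UTP18 (0.27), MPHOSPH10 (0.21) and WDR12 (0.18) on one side and of BYSL (-0.22), BOP1 (-0.11) and RRP12 (-0.09) on the other. Known hosts of guide RNAs, a further list of 51 names of which 18 were measured, had a median of -0.02. Of these hosts 7 were above 0 and 10 below, and CHD4 lay at 0. NCL and WDR43 are on this list and on that of ribosomal RNA genes, and CHD4 and SNHG20 are also spanning genes. EP400, SNHG5 and WDR43 led on one side with 0.29, 0.28 and 0.13, and SNHG15, MYO19 and RPS3 on the other with -0.26, -0.25 and -0.24. GAS5, a non-coding host of many box C/D guides that was chosen after its values were seen, had 10.98 with FOSL1 siRNA and 10.96 with control siRNA. None of the 18 hosts reached 1.5-fold, which is likewise near the background of 1.89%.

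**Figure D4:**
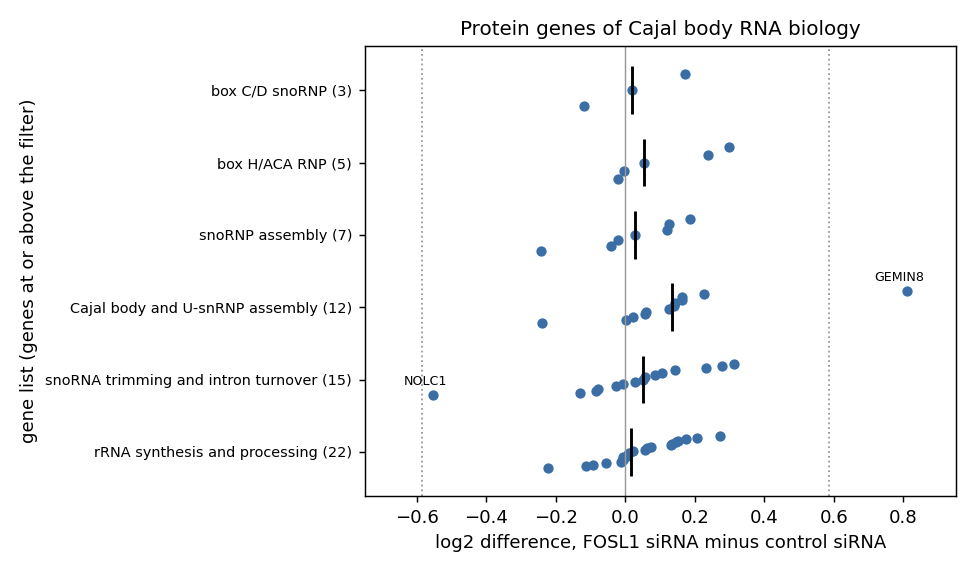
Log2 difference (FOSL1 siRNA minus control siRNA, horizontal axis) of the protein genes of 6 lists at or above the filter, 1 point per gene in each list, with a vertical bar at each list's median and dotted lines at 1.5-fold. GEMIN8 lies beyond the upper dotted line at 0.81 and NOLC1 short of the lower one at -0.55.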

How the data were processed

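Total RNA of 2 cultures of UACC62 cells was amplified, labelled with biotin and hybridised to whole-transcript arrays, per the labels' protocols. The deposited values are taken as log2 intensities from their range, 2.226 to 14.81, since the labels state neither scale, background correction, normalization nor genome build. Values at the same rank of the 2 arrays differed by at most 0.0301, so a shift in total RNA could not be seen. Genes were named from the platform's probe-to-gene table, in which 16098 of 53427 probe sets had 1 symbol, 0 had several and 37329 had none. All 14884 genes matched the RefSeq table of GRCh38.p14 by Entrez ID. The probe set of highest mean stood for a gene. With 1 array per condition, the number of arrays limits the precision. Members and lists were chosen with earlier results of these data known. Genes were named by a rule: FOSL1, every member at or above the filter and all measured core particle proteins. Of each other list, up to 3 members per direction were named. The markers of the cell line, COIL, GAS5 and the other short RNAs were named outside this rule. So were genes given as not measured or as shared between lists. Dim members were described for completeness. Planned results for SNORD and SNORA genes had no members. The gene that spans a member was the smallest named one, and the planned match of strands could not be made. Calculations used Python 3.11.15, pandas 2.3.3, NumPy 2.4.6 and statsmodels 0.14.6 (loess span 0.3) and were tested on simulated data. Alternatives were array centring, quantile normalization over named genes, subtraction of a loess curve fitted on mean level, the mean of all probe sets, other filters, means for medians, a threshold of 2-fold, and identical value pairs counted once. Leaving out SCARNA9 and SCARNA9L was chosen after seeing the data.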

Additional observations from a re-analysis of the deposited data

How the results depend on the processing

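SCARNA9 lay between 0.86 and 0.88 and SCARNA9L between 0.94 and 0.95 under the 3 scalings and the mean of probe sets. All 92 values of single members under these alternatives moved by under 0.169, the SD between probe sets of a gene, and 1 changed sign (SCARNA10, which lies at 0.02, to -0.00 after quantile normalization). The mean of probe sets alters no member's own value, as each has 1 probe set, but it lowers the filter so that SCARNA6 passed, and the median of the members was then -0.04, against 0.02 as reported. That median was -0.10 with the filter at the 75th percentile and -0.00 after quantile normalization. The count of members at least 1.5-fold higher, 2 as reported, was 4 with no filter, since dim genes entered, 0 with the filter at the 75th percentile, 0 at a threshold of 2-fold, 1 without SCARNA9L and 0 without both. Members at or above the filter, 9 as reported, were 17 with the filter at the median of all probe sets and 4 at the 75th percentile. The median was -0.27 without SCARNA9 and SCARNA9L, the highest values, and -0.13 without SCARNA9L. With no filter it was 0.02 without SCARNA9 and SCARNA9L. No alternative gave a member at least 1.5-fold lower. Planned results for SNORD and SNORA genes gave no value, as none was named. No paired analysis was possible because each condition had 1 array. Because both arrays had nearly equal distributions, the scalings could change little, and their small effect does not show that the differences would repeat.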
